A study of Rattus norvegicus with 9 samples.

Results

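The aminoacyl-tRNA synthetases of quiescent rat aortic smooth muscle cells (RASMC) are described here at 6 hr of Na+,K+-ATPase inhibition. A list of 35 synthetase genes was used, 19 for the cytosolic enzymes and 16 for the mitochondrial ones, whose symbols end in 2. A gene was taken as measured where a probe set of the array carried its symbol alone, and the probe set with the highest mean was used. This gave 30 of 35 genes, 19 of 19 cytosolic and 11 of 16 mitochondrial, among 14324 genes with 1 symbol. Cars2, Ears2, Iars2, Mars2 and Wars2 are not analysed here. Hars1 had more than 1 probe set, of which the brighter was used; the other averaged 5.90, below the array medians.

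RNA was taken from 3 cultures in K+-free DMEM, 3 in DMEM with 3 mM ouabain and 3 in control DMEM, each hybridised to 1 Affymetrix Rat Gene 1.0 ST array. All cells came from a commercial stock of rat aortic smooth muscle, were grown in serum at low passage, and were then held in low serum before the 6 hr incubation. Ouabain binds the Na+,K+-ATPase and blocks it, whereas K+-free medium withholds the ion that the pump carries into the cell. The comparison therefore asks how synthetase mRNAs stand when the pump is stopped in either way. The values are log2 signals, so a difference of 1 is a 2-fold difference.

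Aminoacyl-tRNA synthetases join each amino acid to its own tRNA and so supply ribosomes with substrate. Animal cells hold a cytosolic set, and a mitochondrial set that is also encoded in the nucleus and serves the proteins made inside the organelle. Glycyl- and lysyl-tRNA synthetases (Gars1, Kars1) serve both sites from 1 gene. Several cytosolic enzymes sit in a large multi-synthetase complex held together by scaffold proteins. Many cytosolic synthetase genes are known targets of ATF4, the transcription factor of the amino acid response, which acts through C/EBP-ATF response elements.

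A gene was called raised or lowered where limma, fitted over all 9 arrays, gave a Benjamini-Hochberg adjusted p below 0.05 (over all probe sets) and the change exceeded 1.2-fold. Array medians lay between 6.76 and 6.80, and 16.1% of the 27342 probe sets were raised and 17.9% lowered in K+-free medium, 15.8% and 16.8% with ouabain. The precision is limited by the number of arrays: with 3 in each group, an exact two-sided permutation p could reach 0.1 at the least. Smooth muscle markers were high, though of 9 measured, 3 were lowered in K+-free medium and 6 with ouabain, and their summed linear signal was 27660 to 28100 in K+-free medium, 24500 to 27200 with ouabain and 30410 to 31460 in control medium. Lmod1 had log2 changes of -1.48 and -1.61. Tagln averaged 13.52 in K+-free medium, 13.40 with ouabain and 13.60 in control medium, and 8 of the 9 markers lay above the highest array median, but Des did not, at 5.87, 5.81 and 5.63 in that order of groups. Of 8 fibroblast markers, 4 (Col1a1, Lum, Thy1 and Pdgfra) lay above the highest array median and Dpt, Dcn, Pi16 and Cd34 below it. In K+-free medium 2 of the 8 rose, Lum by 0.29 and Pdgfra by 1.30, and limma called 0 raised with ouabain, where Dpt and Lum were higher at an unadjusted p under 0.05 and under the fold limit. The summed fibroblast signal was 21450 to 21940 in K+-free medium, 19330 to 21180 with ouabain and 18670 to 19090 in control medium. Of 8 macrophage markers, 3 rose with each treatment. In K+-free medium and with ouabain, Cd68 rose by 0.94 and 1.29, Cd14 by 0.43 and 1.27, and Csf1r by 0.53 and 0.33. Cd14 averaged 8.41 in K+-free medium, 9.25 with ouabain and 7.97 in control medium. Ptprc, Itgam, Adgre1 and Lyz2 averaged under 5.8 in all groups, and Cd163 at most 5.90. The summed linear signal of the 8 markers was 772 to 880 in K+-free medium, 1127 to 1190 with ouabain and 593 to 642 in control medium. Of 5 measured endothelial markers, Cdh5 was raised and Esam lowered with both treatments. The part of other cells in the changes below was not tested. In bulk RNA, fewer cells of a type and less RNA per cell cannot be told apart.

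Most cytosolic synthetase mRNAs were lower with ouabain, and about as many were lower as not in K+-free medium. K+-free medium lowered 9 of 19 (47.4%), 3 were raised (15.8%) and 7 did not pass the test. With ouabain 13 of 19 were lowered (68.4%), 0 were raised and 6 did not pass the test. In limma 2 cytosolic enzymes, Rars1 and Tars1, were higher with ouabain at an unadjusted p under 0.05, both by 0.16 on the log2 scale and under the fold limit, and the methods' t-test also called 0 raised. Among all genes with mean signals in the range of the cytosolic synthetases, 26.4% were lowered and 31.6% raised in K+-free medium, and 22.6% were lowered and 31.5% raised with ouabain. The shares of cytosolic enzymes lowered were above those of genes of like signal and the shares raised were below them, and this was not tested. Their median log2 change was -0.16 in K+-free medium and -0.32 with ouabain, against 0.06 and 0.07 for all probe sets. Without ouabain replicate 3 the count lowered by ouabain was 10, as Aars1, Eprs1 and Mars1 no longer passed.

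The mitochondrial synthetases were measured at lower signals, with control means between 6.98 and 8.83 against 10.45 to 12.30 for the cytosolic ones. K+-free medium lowered 6 of 11 (54.5%) and raised 1. With ouabain 8 of 11 were lowered (72.7%) and 2 were raised, but only 5 were lowered under quantile normalization. These shares have to be read against genes of like signal, of which 48.4% were lowered and 19.4% raised in K+-free medium and 47.2% were lowered and 18.0% raised with ouabain. The share lowered in K+-free medium was thus near that background and is no result about these enzymes. Their median log2 change was -0.34 in K+-free medium and -0.37 with ouabain, both lower than the cytosolic medians. Genes of like signal were also lower in the mitochondrial range, with medians of -0.24 and -0.21, against 0.04 and 0.07 in the cytosolic range. The order of the class medians is therefore no result about these enzymes. That order did not hold under quantile normalization, where the mitochondrial medians were -0.15 and -0.18 and the cytosolic ones -0.23 and -0.38.

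**Figure D1:**
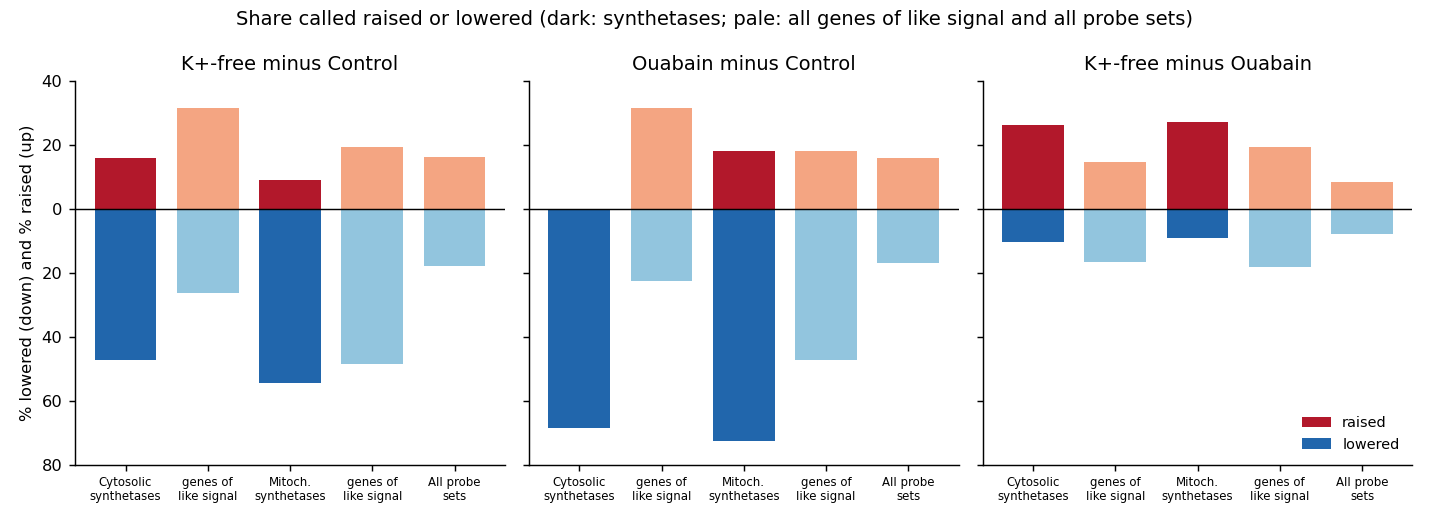
Percent of genes called raised (upward bars) and lowered (downward bars) in each comparison, for the 19 cytosolic and 11 mitochondrial synthetases (dark), all genes in the same signal range as each class, and all probe sets (pale). With ouabain 68.4% of cytosolic synthetases were lowered, against 22.6% of genes of like signal, while for mitochondrial synthetases in K+-free medium the shares were 54.5% and 48.4%.

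The largest change was that of Qars1, which charges glutaminyl-tRNA in the cytosol and belongs to the multi-synthetase complex. Its log2 signals were 9.68, 9.55 and 9.77 in K+-free medium, 10.97, 10.90 and 11.01 with ouabain, and 11.39, 11.34 and 11.42 in control medium. The 3 groups did not overlap, and the K+-free arrays stood far below both others. The log2 change of Qars1 was -1.72 in K+-free medium (SE 0.063, 3.29-fold, adjusted p = 3.98e-09) and -0.42 with ouabain (SE 0.063, 1.34-fold, adjusted p = 0.000207).

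Phenylalanyl-tRNA synthetase is built from an alpha subunit, Farsa, and a beta subunit, Farsb, and the subunit mRNAs moved by different amounts. Farsa gave log2 signals of 9.37, 9.26 and 9.42 in K+-free medium, 10.11, 10.16 and 10.09 with ouabain, and 10.59, 10.61 and 10.63 in control medium. Farsb gave 11.03, 11.02 and 10.92 in K+-free medium, 10.77, 10.76 and 10.76 with ouabain, and 11.59, 11.51 and 11.42 in control medium. For both genes no treated array reached a control array, but Farsa was lowest in K+-free medium and Farsb lowest with ouabain. Farsa changed by -1.26 in K+-free medium (SE 0.055, adjusted p = 1.42e-08) and by -0.49 with ouabain (SE 0.055, adjusted p = 2.27e-05). Farsb changed by -0.52 (SE 0.058, adjusted p = 1.84e-05) and by -0.75 (SE 0.058, adjusted p = 1.09e-06) in the same comparisons.

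Lars1, the leucyl-tRNA synthetase of the complex, fell with both treatments. Its log2 signals were 10.51, 10.46 and 10.43 in K+-free medium, 10.25, 10.24 and 10.20 with ouabain, and 11.39, 11.32 and 11.26 in control medium. All control arrays were above all treated arrays. The log2 change was -0.86 in K+-free medium (SE 0.052, adjusted p = 1.38e-07) and -1.10 with ouabain (SE 0.052, 2.14-fold, adjusted p = 2.98e-08), the greatest fall of a cytosolic synthetase with ouabain.

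Gars1, the glycyl-tRNA synthetase of both compartments, was the brightest synthetase in control medium. It gave log2 signals of 11.75, 11.79 and 11.71 in K+-free medium, 11.64, 11.63 and 11.48 with ouabain, and 12.32, 12.27 and 12.31 in control medium. The treated arrays were again all below the control arrays. The change was -0.55 in K+-free medium (SE 0.058, adjusted p = 1.21e-05) and -0.72 with ouabain (SE 0.058, adjusted p = 1.57e-06).

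The remaining cytosolic enzymes that fell with both treatments were Vars1 (valine), Wars1 (tryptophan) and Eprs1, which carries the glutamyl and prolyl activities in 1 protein. Their log2 changes ran between -0.56 and -0.35 in K+-free medium and between -0.53 and -0.32 with ouabain. Nars1 (asparagine) fell in K+-free medium, with a log2 change of -0.43, and had a change of -0.19 with ouabain that did not reach the fold limit. Aars1, Cars1, Iars1, Kars1 and Mars1 (alanine, cysteine, isoleucine, lysine and methionine) were called lowered with ouabain, with changes between -0.47 and -0.27, and were not called in K+-free medium, with changes between -0.16 and 0.01. Of these 5, the direct difference between the treatments passed the test for Aars1, Cars1 and Iars1.

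Only Rars1, Tars1 and Yars1 (arginine, threonine and tyrosine) were called raised among cytosolic enzymes, in K+-free medium and by small amounts of 0.29, 0.31 and 0.32 on the log2 scale. None of these 3 calls held under quantile normalization or with the arrays centred on B2m. Rars1 also did not pass without control replicate 2, and Tars1 without K+-free replicate 3. Hars1 and Sars1 (histidine and serine) passed with neither treatment. Hars1 had changes of 0.07 (95% interval -0.05 to 0.19) in K+-free medium and 0.03 (95% interval -0.09 to 0.15) with ouabain.

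**Figure D2:**
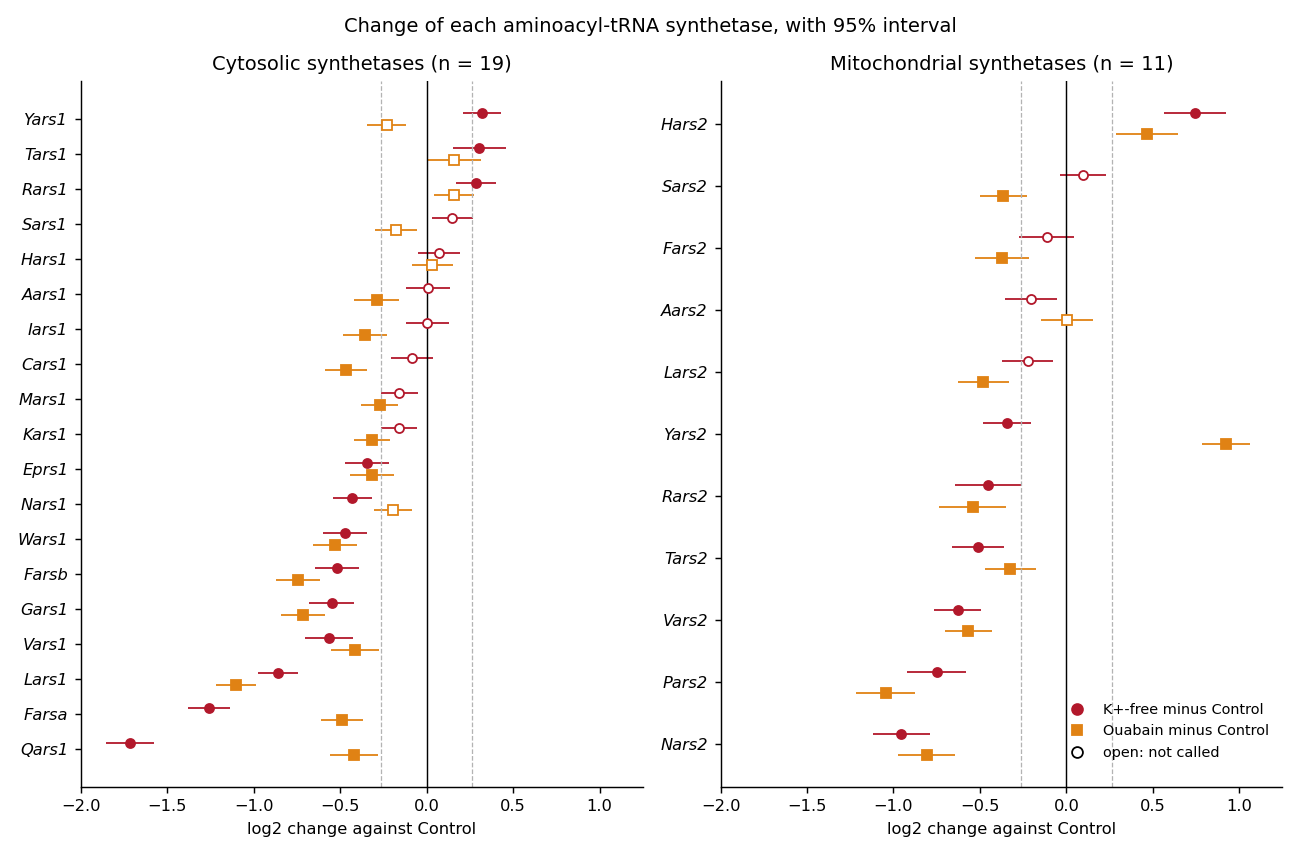
Log2 change against control of the 19 cytosolic (left) and 11 mitochondrial (right) synthetases in K+-free medium (circles) and with ouabain (squares), with 95% intervals from limma; open symbols did not pass the test, and dashed lines mark the 1.2-fold limit. Qars1 and Farsa stand apart in K+-free medium at -1.72 and -1.26, and Yars2 is on opposite sides of 0, at -0.34 and 0.92.

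Among mitochondrial enzymes the greatest falls were those of Pars2 and Nars2, the prolyl- and asparaginyl-tRNA synthetases. Pars2 gave log2 signals of 6.40, 6.49 and 6.41 in K+-free medium, 5.96, 6.23 and 6.23 with ouabain, and 7.13, 7.25 and 7.17 in control medium. Nars2 gave 7.05, 7.08 and 7.10 in K+-free medium, 7.15, 7.13 and 7.39 with ouabain, and 8.10, 8.05 and 7.94 in control medium. In both genes the control arrays lay above all treated arrays, and the Pars2 signals of treated cells lay below the array medians. Pars2 changed by -0.75 in K+-free medium (SE 0.077, adjusted p = 9.5e-06) and -1.05 with ouabain (SE 0.077, adjusted p = 7.19e-07). Nars2 changed by -0.96 (SE 0.074, adjusted p = 9.93e-07) and -0.81 (SE 0.074, adjusted p = 4.38e-06) in the same comparisons.

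Vars2, the mitochondrial valyl-tRNA synthetase, was among the dimmest members. Its log2 signals were 6.34, 6.34 and 6.37 in K+-free medium, 6.37, 6.35 and 6.52 with ouabain, and 7.06, 6.91 and 6.97 in control medium. The treated groups overlapped each other and stayed below control. The change was -0.63 in K+-free medium (SE 0.062, adjusted p = 6.54e-06) and -0.57 with ouabain (SE 0.062, adjusted p = 1.68e-05). Rars2 and Tars2 (arginine and threonine) also fell with both treatments, with log2 changes of -0.45 and -0.51 in K+-free medium and -0.54 and -0.32 with ouabain.

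Fars2, Lars2 and Sars2 (phenylalanine, leucine and serine) were called lowered with ouabain, with log2 changes of -0.37, -0.48 and -0.36, and were not called in K+-free medium, with -0.11, -0.22 and 0.10. The direct difference between the treatments passed for Sars2 and not for Fars2 or Lars2. Aars2 (alanine) passed with neither treatment, at -0.20 in K+-free medium and 0.01 with ouabain. Under quantile normalization the ouabain calls of Fars2, Sars2 and Tars2 and the K+-free calls of Rars2 and Yars2 were lost.

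Yars2, which charges the mitochondrial tyrosyl-tRNA, was the only synthetase called in opposite directions by the treatments. It gave log2 signals of 8.06, 7.84 and 7.88 in K+-free medium, 9.21, 9.21 and 9.16 with ouabain, and 8.28, 8.26 and 8.27 in control medium. The ouabain arrays were all highest and the K+-free arrays all lowest, with no overlap. The change was -0.34 in K+-free medium (SE 0.062, adjusted p = 0.00085) and 0.92 with ouabain (SE 0.062, 1.90-fold, adjusted p = 3.87e-07).

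Hars2, the mitochondrial histidyl-tRNA synthetase, was the only synthetase raised by both treatments. Its log2 signals were 9.70, 9.56 and 9.47 in K+-free medium, 9.26, 9.44 and 9.19 with ouabain, and 8.92, 8.76 and 8.82 in control medium. Every treated array was above every control array. Hars2 rose by 0.74 in K+-free medium (SE 0.081, 1.67-fold, adjusted p = 1.61e-05) and by 0.47 with ouabain (SE 0.081, 1.38-fold, adjusted p = 0.000652).

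Hars2 and its cytosolic counterpart Hars1 lie head to head on rat chromosome 18 and are read in opposite directions from starts with 143 bases between them in the promoter windows of RefSeq (build GRCr8). The stretch between those starts is shown because 1 gene rose and the other was not called. It spans chr18:28672713-28672855 and is read here on the plus strand, towards Hars2; capitals mark the 2 matches to the ETS core (CCGGAAG on the opposite strand), a site for the ETS family of transcription factors.
Hars1 to Hars2: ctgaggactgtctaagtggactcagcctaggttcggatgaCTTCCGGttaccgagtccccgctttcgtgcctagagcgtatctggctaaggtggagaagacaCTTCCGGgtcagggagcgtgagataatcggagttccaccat
Both genes therefore have the same ETS cores in their windows, 109 and 47 bases before the Hars1 start and 103 and 41 bases before the Hars2 start.

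**Figure D3:**
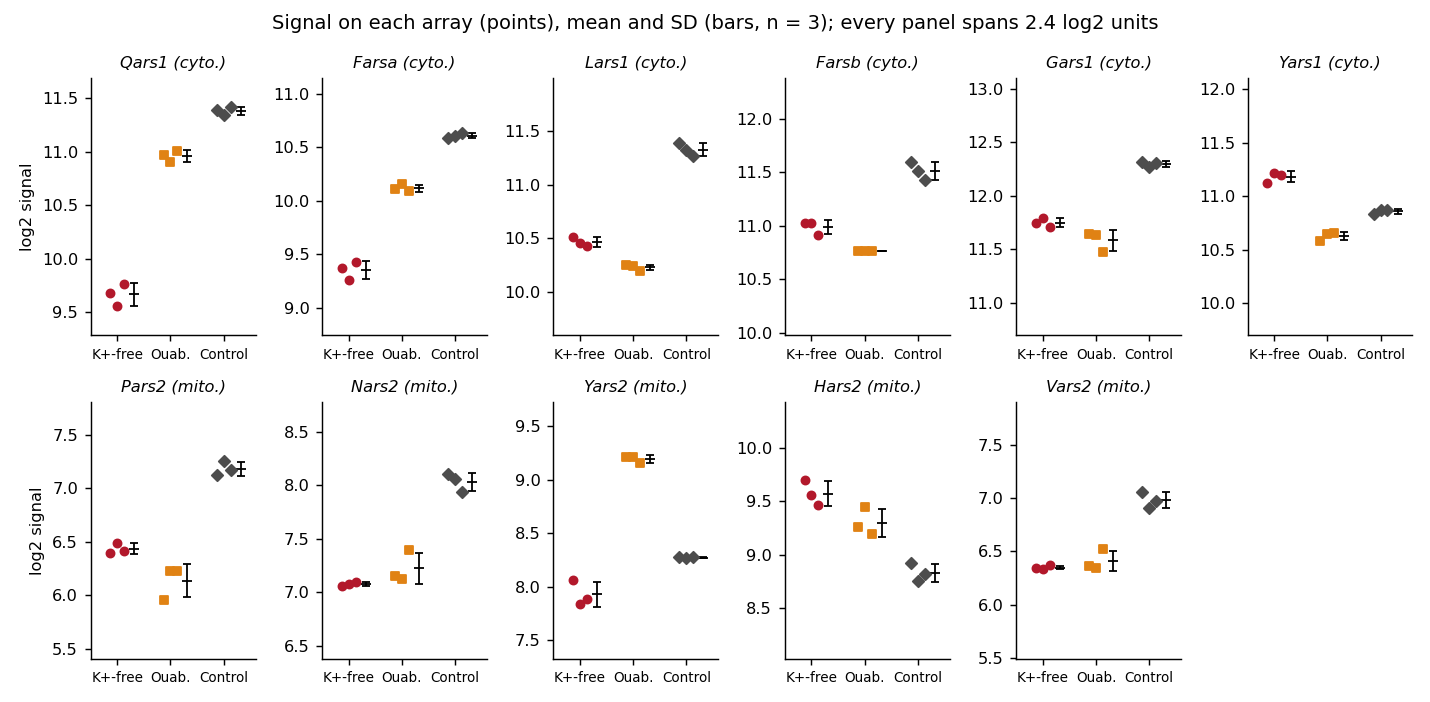
Log2 signal on each array in K+-free medium (circles), with ouabain (squares) and in control medium (diamonds) for 11 synthetases, with the mean and SD of each group (n = 3) beside the points. All panels have the same height on the log2 scale; treated and control arrays overlap in none of them, and the K+-free arrays of Qars1, Farsa and Yars2 lie well below the ouabain arrays.

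Cytosolic and mitochondrial enzymes for the same amino acid could be compared for 11 amino acids, with Eprs1 set against Pars2 for proline and Farsa against Fars2 for phenylalanine. In K+-free medium both enzymes were lowered for 3 amino acids, asparagine, proline and valine, and they were called in opposite directions for 3, arginine, threonine and tyrosine. In each of those last 3 the cytosolic enzyme was the raised one: Rars1 changed by 0.29 and Rars2 by -0.45, Tars1 by 0.31 and Tars2 by -0.51, and Yars1 by 0.32 and Yars2 by -0.34. All 3 cytosolic calls, and the mitochondrial calls of Rars2 and Yars2, were lost under quantile normalization. With ouabain both enzymes were lowered for 4 amino acids, leucine, phenylalanine, proline and valine, and no pair was called in opposite directions. In the other 7 pairs only 1 enzyme was called with ouabain. For histidine the mitochondrial enzyme was called raised and the cytosolic one was not called in either treatment, and for tyrosine the same held with ouabain. The tyrosine result depended on scaling, as Yars1 changed by -0.23 and Yars2 by 0.92 with ouabain. Yars1 was called lowered there under quantile normalization and with centring on B2m or the reference genes, which made that pair opposite.

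**Figure D4:**
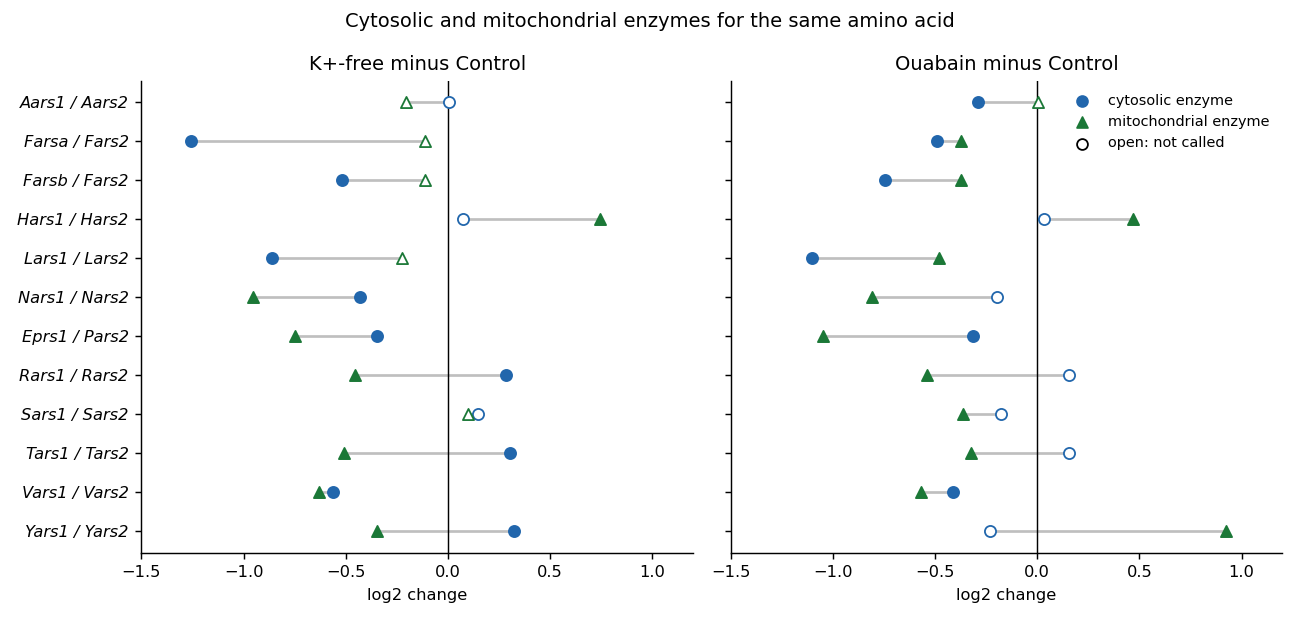
Log2 change of cytosolic (circles) and mitochondrial (triangles) synthetases of the same amino acid, joined by a line, in K+-free medium (left) and with ouabain (right); open symbols did not pass the test. Farsa and Farsb are both set against Fars2. The lines of Rars, Tars and Yars cross 0 in K+-free medium, with cytosolic changes of 0.29, 0.31 and 0.32 and mitochondrial ones of -0.45, -0.51 and -0.34.

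The treatments were then compared directly. In K+-free medium, as compared with ouabain, 5 of the 19 cytosolic synthetases were higher (26.3%) and 2 were lower (10.5%), against 8.45% and 7.97% of all probe sets and 14.6% and 16.6% of genes of like signal. Of the 11 mitochondrial ones, 3 were higher (27.3%) and 1 lower (9.1%), against 19.5% and 18.3% of genes of like signal. Without ouabain replicate 1 only 1 mitochondrial enzyme was higher, Sars2, as Hars2 and Pars2 no longer passed. The Hars2 difference was lost in 8 of the alternatives, among them quantile normalization, the 6 arrays of the comparison alone and both forms of the methods' t-test, and also without ouabain replicate 3, K+-free replicate 1 or K+-free replicate 2. That of Pars2 was lost without K+-free replicate 2 too. Without ouabain replicate 3 the mitochondrial enzymes lower in K+-free medium were 2, Yars2 and Aars2.

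The greatest differences between the treatments were those of Qars1, Yars2, Farsa and Yars1. Qars1 was lower in K+-free medium than with ouabain (log2 difference -1.29, SE 0.063, adjusted p = 1.58e-07). The difference was -1.27 for Yars2 (SE 0.062, adjusted p = 1.82e-07) and -0.77 for Farsa (SE 0.055, adjusted p = 3.13e-06). Yars1, the cytosolic tyrosyl-tRNA synthetase, differed the other way. Its log2 signals were 11.12, 11.22 and 11.20 in K+-free medium, 10.58, 10.64 and 10.66 with ouabain, and 10.83, 10.87 and 10.87 in control medium, so that control lay between the treatments with no overlap. The direct difference was 0.55 (SE 0.050, 1.47-fold, adjusted p = 1.6e-05), although the ouabain change of -0.23 (adjusted p = 0.00303) was under the 1.2-fold limit. The tyrosine enzymes thus differed between the treatments in opposite senses, by 0.55 for Yars1 and -1.27 for Yars2.

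Cars1, Iars1, Sars1 and Aars1 were also higher in K+-free medium than with ouabain, by 0.38, 0.36, 0.33 and 0.30, as were the mitochondrial Sars2, Pars2 and Hars2, by 0.46, 0.30 and 0.27. The Aars1 difference was lost without ouabain replicate 3 and by the methods' t-test after Benjamini-Hochberg adjustment. Eprs1, Hars1, Wars1, Rars2 and Vars2 had the smallest differences, between -0.06 and 0.09, with 95% intervals that reached from -0.20 to 0.28 at the widest.

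Promoter windows of 300 bases, from 250 bases before the start of a gene to 50 bases after it, were at hand for 28 of 30 measured synthetases, 17 cytosolic and 11 mitochondrial; Gars1 and Rars1 had none. Letters of 4 motifs were searched on both strands. The C/EBP-ATF response element, TGATGNAA, was in 7 of 17 cytosolic and 0 of 11 mitochondrial windows, against 3.98% of all 33469 windows. The ETS core, CCGGAAG, was in 9 and 4, against 8.75%. The E-box, CACGTG, which reads the same on both strands, was in 5 and 0, against 6.42%. The core of nuclear respiratory factor 1, CGCATGCG, also the same on both strands, was in 0 and 1, that of Vars2, against 1.66%. A match is only a description of the letters in the window.

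The genes with a response element were Aars1, Cars1, Iars1, Mars1, Nars1, Tars1 and Yars1, which include 4 of the 5 cytosolic enzymes that were higher in K+-free medium than with ouabain, and for that reason the element is shown for 6 of them. Each line is read in the direction of its gene, in GRCr8, with the matched letters in capitals, on either strand.
Cars1, chr1:208225334-208225363, minus strand: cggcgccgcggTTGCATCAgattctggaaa
Iars1, chr17:15193658-15193687, minus strand: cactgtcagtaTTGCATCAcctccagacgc
Mars1, chr7:65023752-65023781, minus strand: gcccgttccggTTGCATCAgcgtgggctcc
Nars1, chr18:60275778-60275807, minus strand: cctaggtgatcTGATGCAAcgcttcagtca
Tars1, chr2:62114811-62114840, minus strand: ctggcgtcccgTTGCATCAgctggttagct
Yars1, chr5:146820190-146820212, plus strand: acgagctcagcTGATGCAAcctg
The matches start 24, 17, 14 and 27 bases before the start in Iars1, Mars1, Nars1 and Tars1, and at base 18 and base 39 of the transcribed part in Cars1 and Yars1. All 6 have C at the free position.

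The 7 genes with the response element had a median log2 change of 0.00 in K+-free medium, where 2 were raised and 1 lowered, and of -0.27 with ouabain, where 0 were raised and 4 lowered. The 10 cytosolic genes with a window and no match had medians of -0.50 in K+-free medium, where 7 were lowered, and -0.42 with ouabain, where 8 were lowered. Between the treatments the medians were 0.30 with the element, where 4 of 7 were higher in K+-free medium, and 0.05 without it, where 1 of 10 was higher and 2 were lower. The ranges overlapped, since Nars1 with the element had a change of -0.43 in K+-free medium and Sars1 without it had a change of 0.15. These groups were formed with the changes known and were not tested. They do not part ATF4 targets from other genes: of 13 cytosolic synthetases listed as ATF4 targets, 12 had a window and 7 a match. Eprs1, Lars1, Sars1, Vars1 and Wars1 are listed targets with a window and no match. The other motifs were not set against the changes. Of the 7 genes with the element, Aars1, Iars1 and Tars1 also hold an E-box, and Cars1, Mars1 and Nars1 an ETS core. What belongs to the element alone therefore cannot be told from these groups.

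**Figure D5:**
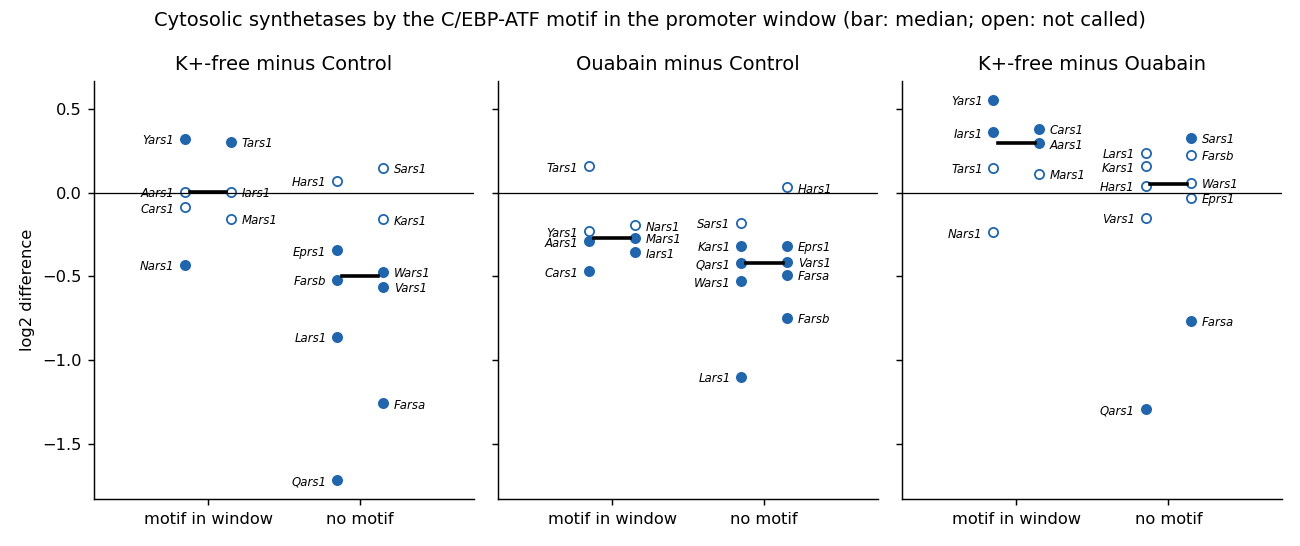
Log2 differences of the cytosolic synthetases with (n = 7) and without (n = 10) the C/EBP-ATF motif in the promoter window, in the 3 comparisons; bars are medians and open symbols did not pass the test. Medians were 0.00 and -0.50 in K+-free medium, -0.27 and -0.42 with ouabain, and 0.30 and 0.05 for K+-free medium minus ouabain.

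The 3 synthetases that were lower in K+-free medium than with ouabain had no response element in their windows. The 60 bases before their starts are shown for comparison with the lines above; capitals mark the only match to any of the 4 motifs in them, an ETS core of Farsa.
Farsa, chr19:40205824-40205883, minus strand: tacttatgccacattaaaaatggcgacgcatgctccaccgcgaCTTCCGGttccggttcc
Qars1, chr8:118086183-118086242, plus strand: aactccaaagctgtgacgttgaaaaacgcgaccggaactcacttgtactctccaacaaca
Yars2, chr11:98142293-98142352, minus strand: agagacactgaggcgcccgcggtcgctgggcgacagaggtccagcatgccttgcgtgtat
Qars1 and Yars2 held none of the 4 motifs anywhere in their windows.

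The 13 cytosolic synthetases known as ATF4 targets were called in both directions in K+-free medium. With ouabain 12 of the 13 changes were below 0. With K+-free medium 2 were raised and 6 lowered, with a median log2 change of -0.16, and with ouabain 0 were raised and 9 lowered, with a median of -0.32. None of the 13 was called lower in K+-free medium than with ouabain and 5 were higher. Of genes in the signal range of the cytosolic synthetases, 31.6% were raised and 26.4% lowered in K+-free medium, 31.5% and 22.6% with ouabain, and 14.6% were higher in K+-free medium than with ouabain. Other genes of the amino acid response moved both ways: of 25 measured, 5 were raised and 11 lowered in K+-free medium, and 6 were raised and 13 lowered with ouabain. Of all probe sets 16.1% were raised and 17.9% lowered in K+-free medium, and 15.8% and 16.8% with ouabain. Ppp1r15a, a phosphatase subunit that relieves the translation block of the response, rose by 1.58 in K+-free medium and 1.27 with ouabain on the log2 scale, and Cebpb, a C/EBP transcription factor, by 1.10 and 0.71. Trib3, a pseudokinase induced by ATF4, fell with both, with log2 changes of -1.23 and -1.36, as did Pycr1, of proline synthesis, with -0.64 and -0.81. Atf4 itself and Asns, the asparagine synthetase, were looked up after their values had been seen. Atf4 had a change of 0.26 in K+-free medium, under the fold limit, and rose by 0.37 with ouabain, while Asns fell with both, with changes of -0.52 and -0.75.

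The enzymes of the multi-synthetase complex were also called in both directions in K+-free medium, and with ouabain all but Rars1 were lowered. Of the 7 on the list, 1 was raised and 3 lowered in K+-free medium and 6 were lowered with ouabain. The medians of -0.16 and -0.32 equal those of all cytosolic enzymes because Kars1 is the middle gene of both lists. The shares lowered were 42.9% and 85.7%, against 26.4% and 22.6% of genes of like signal. The 3 scaffold genes of the complex went separate ways. Aimp1 fell with both, with log2 changes of -0.69 in K+-free medium and -0.42 with ouabain. Aimp2 had a change of -0.15 in K+-free medium that did not pass and rose by 0.71 with ouabain, a direct difference of -0.86 (SE 0.068, adjusted p = 6.15e-06). Eef1e1 rose by 0.53 in K+-free medium and had a change of 0.04 with ouabain, a direct difference of 0.50 (SE 0.058, adjusted p = 0.000104). Class I and class II synthetases, which differ in the fold of the catalytic domain, were lowered in 7 of 13 and 7 of 16 in K+-free medium and in 10 of 13 and 10 of 16 with ouabain. Of all probe sets 17.9% and 16.8% were lowered, and the classes mix cytosolic and mitochondrial enzymes, whose genes of like signal differ in these shares.

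Partner enzymes of mitochondrial charging fell as well. Gatc and Qrsl1 belong to the amidotransferase that makes glutaminyl-tRNA in mitochondria, and Mtfmt formylates the initiator methionyl-tRNA there. In K+-free medium their log2 changes were -0.52, -0.52 and -0.71, and all 3 passed. With ouabain Qrsl1 and Mtfmt fell, with changes of -0.57 and -1.28, while Gatc had a change of -0.25, under the fold limit. A list for proofreading of charged tRNAs and for selenocysteine, which also holds the synthetase gene Tars3, had 10 measured genes. Of these, 9 were lowered in K+-free medium and 8 with ouabain, Tars3 among them in both, with 0 called raised by limma in either. Of all probe sets 17.9% and 16.8% were lowered, and of genes in the signal range of the mitochondrial synthetases 48.4% and 47.2%. Pstk, the kinase of the selenocysteine route, had log2 changes of -1.82 in K+-free medium and -1.97 with ouabain, and Tars3, a further threonyl-tRNA synthetase gene, had -1.19 and -0.47. The deacylases Dtd2 and Dtd1, which act on charged tRNA, had -1.18 and -0.52 in K+-free medium and -1.05 and -0.90 with ouabain.

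Genes of tRNA maturation and export moved both ways. Of 19 measured, 2 were raised and 10 lowered in K+-free medium, and 4 were raised and 10 lowered with ouabain. The 52.6% lowered in each stood against 17.9% and 16.8% of all probe sets, but near the 48.4% and 47.2% of genes in the signal range of the mitochondrial synthetases. Some listed genes were brighter than that range, and in the range of the cytosolic synthetases 26.4% and 22.6% were lowered. Neither range covers the whole list, so the share is no result about the list. Trmt10c, a subunit of mitochondrial RNase P, rose by 1.02 in K+-free medium and 1.46 with ouabain. Rpp40 and Pop4, proteins of nuclear RNase P, fell with both treatments: Rpp40 had log2 changes of -1.28 in K+-free medium and -0.84 with ouabain, and Pop4 had a change of -1.08 with ouabain and was lowered in K+-free medium too (adjusted p = 5.5e-08). Rpp25, another protein of that enzyme, had no called change in K+-free medium (log2 change 0.00) and rose by 1.39 with ouabain.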

How the data were processed

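Signals of 27342 probe sets were deposited on the log2 scale, which the authors computed from the array scans by RMA, a method that corrects background, equalises arrays and summarises the probes of a gene. The labels also name Partek; no version is given there. The study's methods further mention MAS5 and GeneSpring, but the values are on the scale of RMA. No further scaling was applied, and no per-sample column was left out. Platform annotation gives 1 gene symbol for 15097 probe sets, several for 323 and none for 11922, and genes were named only from the first kind.

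Group means were fitted over the 9 arrays in R 4.3.3 with limma 3.58.1 and moderated by empirical Bayes (prior degrees of freedom 4.59). The 3 contrasts set K+-free medium against control, ouabain against control, and the treatments against each other; each was adjusted by Benjamini-Hochberg across all probe sets. Intervals are at the 95% level. Both treatments share the control arrays. Conditions came from the sample labels. The replicates are stated to be independent experiments, in each of which the paper says that controls and treatments ran side by side. The labels do not say whether a replicate number marks an experiment. Replicate numbers were not used as pairs, since only 4 of 9 same-numbered pairs of arrays deviated together (r over 0.1). The fit was tested on simulated data before use.

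The members and lists were chosen with earlier results of these data known. Values of every array are given for the 5 cytosolic and 5 mitochondrial enzymes with the largest called changes, the 4 with the largest called differences between treatments, and those called in opposite directions; of other lists, at most 4 genes are named, or all of a list of 4 or fewer, except Atf4, Asns and the marker genes, which were chosen after their values were seen. Genes of like signal are those with 1 symbol whose mean over the arrays was between the lowest and highest of the class, 10.03 to 11.89 for cytosolic and 6.58 to 9.24 for mitochondrial enzymes. Promoter windows came from RefSeq (GRCr8) and were searched for matches with Python 3.11.15; plots were drawn with matplotlib 3.10.9. Alternatives were other scalings, filters, tests and limits, a replicate block, and leaving out each array. Protein sequences were not used here. Some items of the list and 1 promoter sequence are not reported here.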

Additional observations from a re-analysis of the deposited data

Results flagged for a closer look

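These synthetases differed between K+-free medium and ouabain in the direct limma comparison, so that the same enzyme changed by different amounts when the pump was stopped in either way. In K+-free medium Qars1, Yars2 and Farsa were lower than with ouabain, with log2 differences of -1.29, -1.27 and -0.77. Yars1, Sars2, Cars1, Iars1 and Sars1 were higher in K+-free medium, by 0.55, 0.46, 0.38, 0.36 and 0.33, and so were Aars1, Pars2 and Hars2, by 0.30, 0.30 and 0.27. The Hars2 difference was lost in 8 of the alternatives, that of Pars2 in 3 and that of Aars1 in 2. Only Yars2 was called in opposite directions against control.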

How the results depend on the processing

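Limits and scaling moved counts most. Centring on B2m shifted the median change of all probe sets to -0.10 in K+-free medium and -0.08 with ouabain, against 0.06 and 0.07 as deposited. Of the cytosolic enzymes raised in K+-free medium (3 as reported), 0 passed under quantile normalization, 0 with centring on B2m, 1 with centring on the reference genes and 0 at a fold above 1.5. At that fold, 3 cytosolic and 3 mitochondrial enzymes were lowered in K+-free medium, 3 and 2 were lowered and 1 mitochondrial enzyme was raised with ouabain, and between the treatments 0 cytosolic and 0 mitochondrial enzymes were higher in K+-free medium. Without a fold limit 1 cytosolic enzyme was raised with ouabain, and 8 cytosolic and 5 mitochondrial enzymes were higher in K+-free medium than with ouabain. Under quantile normalization 2 mitochondrial enzymes were raised in K+-free medium and 5 were lowered with ouabain. The mitochondrial enzymes higher in K+-free medium than with ouabain (3 as reported) were 5 with centring on the reference genes and 1 by the methods' t-test after Benjamini-Hochberg adjustment. The cytosolic median in K+-free medium (-0.16) became -0.23 under quantile normalization, -0.32 on B2m and -0.22 on the reference genes, and that with ouabain (-0.32) became -0.38, -0.47 and -0.39. The mitochondrial median in K+-free medium (-0.34) became -0.15 under quantile normalization and -0.50 on B2m, and that with ouabain (-0.37) became -0.18 and -0.53. The causes were not tested.

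Leaving out each array in turn gave 1 to 4 mitochondrial enzymes higher and 1 to 2 lower in K+-free medium than with ouabain. The cytosolic median with ouabain ranged from -0.36 to -0.30, and the medians of K+-free medium minus ouabain from 0.11 to 0.16 for cytosolic and from 0.028 to 0.17 for mitochondrial enzymes. Among repeats for single enzymes under the alternatives other than the fold limits, 1834 were as reported, counting enzymes not called in either. A call was lost in 34 repeats and gained in 22, and 0 changed direction of a call. The labels link arrays of different groups only by a replicate number. Same-numbered arrays correlated in their deviations at -0.05 to 0.31 and others at -0.28 to 0.16. With the replicate number as a block, 9 cytosolic and 6 mitochondrial enzymes were lowered in K+-free medium and 13 and 8 with ouabain. Mitochondrial enzymes lay nearer the array medians than cytosolic ones.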
